A study of Mus musculus with 2 samples.

Results

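The interferon-stimulated genes described here are 44 of the 27998 genes counted in 2 lung scRNA-seq libraries. They comprise 6 immunity-related GTPases, 6 guanylate-binding proteins, 4 transcription factors, 17 antiviral effectors, 3 genes of antigen processing and class I control, 3 negative regulators, and 5 genes for interferon gamma and the interferon receptor chains. The set was drawn up because Iigp1 and Tgtp2 had been seen to be higher in the endothelial cells (ECs) of the room air library, so it was chosen by their summed counts in ECs of the 2 libraries. The contrast between the libraries in ECs is therefore given as a description. All 44 symbols were found in both libraries, and Gbp6 stood for 2 annotated features, 1 of them (ENSMUSG00000079362) with 0 UMIs in ECs, which were summed.

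Wild-type C57BL/6 pups breathed room air with 21% oxygen or, as a model of bronchopulmonary dysplasia, hyperoxic gas with 80% oxygen from birth, and their lungs were taken at postnatal day 14. The lungs of 8 mice per group were digested with dispase, collagenase and DNase, freed of red blood cells and pooled into 1 droplet library per group. The study asked which cells and genes of the lung differ after hyperoxia. With 1 library per group no test between groups was possible, the spread between mice is not known, and every interval below is an exact 95% interval that covers counting error only.

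Interferons are secreted proteins that bind receptor pairs on the cell surface. The receptors activate JAK kinases, which phosphorylate STAT proteins. Activated STAT complexes then bind DNA, at the interferon-stimulated response element (ISRE) together with IRF9 after type I and type III interferon, or at the gamma-activated site (GAS) after interferon gamma. The genes switched on in this way include the immunity-related GTPases and guanylate-binding proteins, which act on the membranes around intracellular pathogens, the antiviral effectors and the immunoproteasome. ECs line every lung vessel, meet circulating cytokines directly and express both kinds of receptor. General capillary (gCap) cells and aerocytes (aCap cells), the latter specialised for gas exchange, form the alveolar capillaries.

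Promoter sequences are shown for members whose values the results turn on, with motif matches in capitals. The ISRE was searched as GAAA, 2 bases of any kind and GAAA (TTTC, 2 bases and TTTC on the other strand), and the GAS as TTCNNNGAA, which is its own reverse complement. The sequences were taken from a RefSeq table of the GRCm38.p6 build, each running 250 bases before to 50 bases after an annotated start, and 34 of the 44 members were in that table. The 100 bases before the start are printed 5′ to 3′ on the strand of the gene. Tgtp2, Igtp and Irgm2 encode immunity-related GTPases, and in all 3 a GAS match was followed by an ISRE match whose first base lay 11 bases further on.
Tgtp2, chr11:49064213-49064312, minus strand: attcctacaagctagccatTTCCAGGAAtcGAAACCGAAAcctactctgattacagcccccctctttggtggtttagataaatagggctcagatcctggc
Igtp, chr11:58199456-58199555, plus strand: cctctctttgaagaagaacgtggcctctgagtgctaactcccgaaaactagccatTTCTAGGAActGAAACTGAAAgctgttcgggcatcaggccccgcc
Irgm2, chr11:58214877-58214976, plus strand: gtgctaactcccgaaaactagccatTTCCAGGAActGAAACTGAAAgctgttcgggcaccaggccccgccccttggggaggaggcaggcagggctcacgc
The same order and spacing was found in 5 of 27025 genes of the table (0.0185%), and the others were Tgtp1, a near-identical neighbour of Tgtp2, and Gm12185. The Igtp and Irgm2 windows were near-identical around the matches, so the 5 genes are not 5 independent cases. The 3 windows also held ISRE matches at different distances from the start, -70 in Tgtp2, -34 in Igtp and -64 in Irgm2. Irgm1, which encodes a regulatory GTPase of this family, held overlapping ISRE matches and no GAS match, as did Gbp3, while Gbp2 held 1 ISRE match and Gbp7 both kinds.
Irgm1, chr11:48871421-48871520, minus strand: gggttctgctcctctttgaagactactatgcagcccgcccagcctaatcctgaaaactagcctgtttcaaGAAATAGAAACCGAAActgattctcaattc
Gbp2, chr3:142620563-142620662, plus strand: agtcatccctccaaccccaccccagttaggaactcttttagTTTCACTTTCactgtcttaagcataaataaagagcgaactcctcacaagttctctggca
Gbp3, chr3:142559944-142560043, plus strand: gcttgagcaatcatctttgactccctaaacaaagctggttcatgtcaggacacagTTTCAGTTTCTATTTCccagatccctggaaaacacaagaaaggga
Gbp7, chr3:142530236-142530335, plus strand: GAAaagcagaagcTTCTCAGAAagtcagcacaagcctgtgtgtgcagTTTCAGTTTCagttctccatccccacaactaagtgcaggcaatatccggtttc
In the Gbp7 window the first 3 capitals close a GAS match that began before it. Irf1, the transcription factor, held a GAS match alone, and Isg15, the ubiquitin-like modifier, held 3 overlapping ISRE matches.
Irf1, chr11:53769914-53770013, plus strand: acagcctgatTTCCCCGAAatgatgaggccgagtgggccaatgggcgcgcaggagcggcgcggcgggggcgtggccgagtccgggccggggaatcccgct
Isg15, chr4:156200819-156200918, minus strand: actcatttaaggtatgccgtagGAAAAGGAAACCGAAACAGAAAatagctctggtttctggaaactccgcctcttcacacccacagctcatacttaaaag
Bst2, which encodes tetherin and differed little between the libraries in ECs, is shown from base -150 to base -51, where a GAS match overlapped the first of 2 overlapping ISRE matches.
Bst2, chr8:71537523-71537622, minus strand: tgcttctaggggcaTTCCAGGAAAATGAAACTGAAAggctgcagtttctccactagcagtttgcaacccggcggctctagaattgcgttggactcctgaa

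Among the 34 members in the table, 18 (52.9%) held an ISRE match in the 300 bases and 14 (41.2%) a GAS match, against 3.99% and 9.55% of all genes of the table. Both motifs were found in 8 members (23.5%) and in 0.54% of all genes. Of the 12 GTPase members (immunity-related GTPases and guanylate-binding proteins together), 9 were in the table and 8 of these held an ISRE match, and 5 held a GAS match. In contrast, 0 of the 5 ligand and receptor genes held an ISRE match and 3 held a GAS match. Of the 11 matched members that were lower in hyperoxia ECs by the limit given below, 8 held an ISRE match (72.7%). All of these but Isg15 were GTPase members (Tgtp2, Igtp, Irgm1, Irgm2, Gbp2, Gbp3 and Gbp7). Of the 15 matched members measured above the floor but not lower, 5 held an ISRE match (33.3%). Of the 8 matched members under the floor, 5 held an ISRE match (62.5%). The GAS shares of the first 2 groups were 36.4% and 40.0%, and 4 of the 8 members under the floor held a GAS match. This division rests on the contrast that led to the choice of genes. A match is a match of letters only and was not tested as a site, and the members were chosen as interferon-stimulated genes, so a raised share of these motifs is part of what they are known for.

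**Figure D1:**
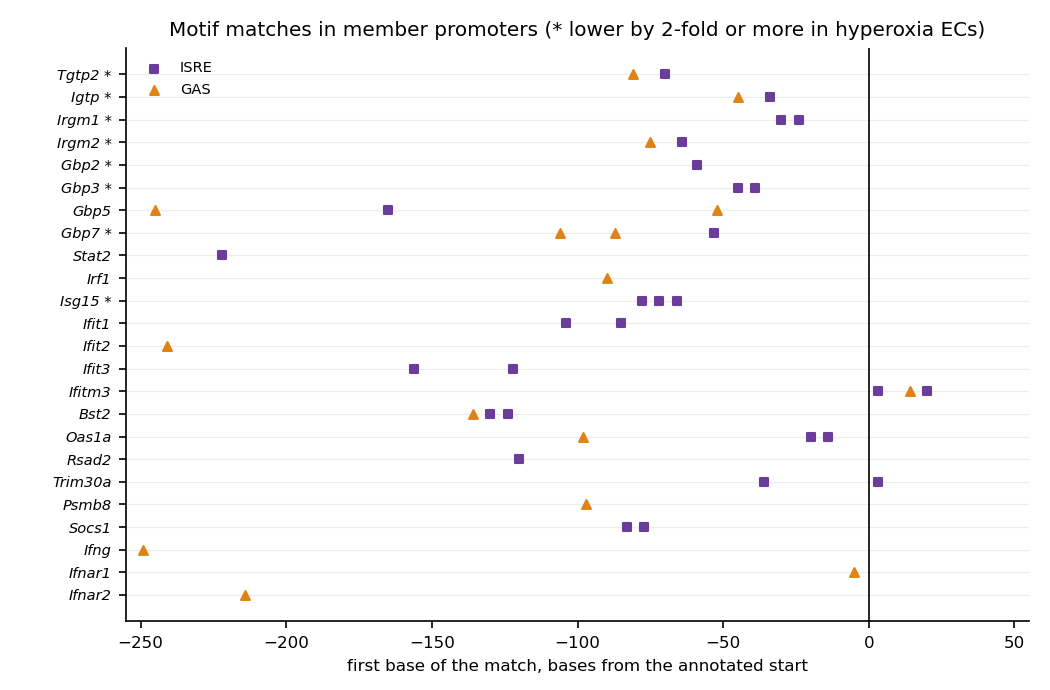
Position of each motif match in the member promoters that held one, by gene; the horizontal axis gives the first base of the match in bases from the annotated start (vertical line), squares are ISRE matches, triangles are GAS matches, and an asterisk marks members lower in hyperoxia ECs by 2-fold or more. The GAS and ISRE matches of Tgtp2, Igtp and Irgm2 stand at the same distance from each other, 11 bases.

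Of the 12 GTPase members, 11 lie in 4 groups on the chromosomes, and Iigp1 lies in none of these. In GRCm38.p6, Gbp2, Gbp3, Gbp5 and Gbp7 span 144.0 kb of chromosome 3 (142493978 to 142638008), and Gbp4 and Gbp6 span 177.9 kb of chromosome 5 (105115767 to 105293698). Irgm1, Tgtp2 and Ifi47 span 235.0 kb of chromosome 11 (48861968 to 49096974). Igtp and Irgm2 span 23.2 kb further along that chromosome (58199556 to 58222782), where their annotated gene models overlap. Reads shared between near-identical copies could have been split or dropped in the counting, which makes the counts of Tgtp2 (copy Tgtp1), Gbp6 (copy Gbp10) and Ifit3 (copy Ifit3b) uncertain.

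The room air library held 4234 barcodes and 39593888 UMIs, and the hyperoxia library 13223 barcodes and 111934936 UMIs. After filtering, 3680 and 10472 cells remained, with medians of 8074.5 and 7282.5 UMIs per cell, and 17 barcodes were shared between the libraries. Cells were clustered without the members and named from marker genes, so that each name below means "-like". There were 1030 ECs in room air and 2554 in hyperoxia, whose median depths were 7209 and 8003 UMIs. All 8 markers used for ECs, among them Cdh5, Pecam1 and Tie1, were raised in the largest EC cluster. gCap cells made up 61.6% of room air ECs and 34.6% of hyperoxia ECs, and aCap cells 19.1% and 45.3%.

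Most interferon-stimulated genes had a lower level in hyperoxia ECs than in room air ECs, and the 2 GTPase families had the lowest median ratios of the role groups. A member counts here as lower or higher when its summed counts per 1000000 UMIs (CPM) differed by at least 2-fold, a log2 ratio (hyperoxia over room air) of -1 or below or of 1 or above, with a mean CPM of at least 10 (the floor). Of the 33 members over the floor in ECs, 15 were lower, where 2.36% of the 8407 genes over the floor were, and 0 were higher, where 1.93% were. The median log2 ratio of the 33 members was -0.98 and that of all genes 0.01. In all, 32 of the 33 members lay below 0, as did 48.6% of all genes. These counts rest on the contrast that led to the choice of genes. The floor is a mean over both libraries. Members that passed it through their room air level alone included Tgtp2, Gbp6, Ifi27l2a, Irf7 and Usp18. For these genes passing the floor is tied to a lower level in hyperoxia, and the same can hold in the counts below.

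Iigp1, which encodes an immunity-related GTPase that coats the vacuoles of intracellular pathogens, stood at 188 CPM in room air ECs and at 43.3 CPM in hyperoxia ECs. The log2 ratio was -2.12 (-2.24 to -2.00), from 1528 and 885 UMIs, and 42.2% of room air ECs held an Iigp1 UMI against 13.1% of hyperoxia ECs. Tgtp2, a GTPase first found in T cells, stood at 30.02 CPM in room air and, in hyperoxia, 3.03 CPM (log2 ratio -3.31, -3.73 to -2.90, from 244 and 62 UMIs). Counted from the lowest log2 ratio of all 8407 genes, Tgtp2 was at rank 2 and Iigp1 at rank 12. The gene at rank 1 was H19, and ranks 3, 4, 6 and 7 were H2-Ab1, H2-Aa, H2-Eb1 and Cd74, the class II antigen presentation genes, which are not members.

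The other immunity-related GTPases were lower as well. Ifi47 stood at 65.9 CPM in room air against 18.5 CPM in hyperoxia (log2 ratio -1.84), and Irgm1, a regulator of the family, at 68.0 and 25.9 CPM (-1.39). Igtp stood at 54.9 and 23.1 CPM (-1.25), and Irgm2, the least changed of the 6, at 35.6 and 15.2 CPM (-1.23, -1.46 to -0.99). Thus all 6 members of this family were lower, with a median log2 ratio of -1.61.

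The guanylate-binding proteins, large GTPases that assemble on pathogen membranes, differed to a similar extent. Gbp6 had the lowest ratio of those over the floor, with 16.98 CPM in room air and, in hyperoxia, 4.6003 CPM (log2 ratio -1.88, -2.28 to -1.50). Gbp7 stood at 203 and 67.9 CPM (-1.58), and 58.3% of room air ECs held a Gbp7 UMI against 30.7% of hyperoxia ECs. Gbp3 stood at 39.1 and 14.6 CPM (-1.42). Together with these, Gbp2 (69.3 and 28.0 CPM, -1.30) and Gbp4 (144 and 66.7 CPM, -1.11, -1.23 to -0.999) were also lower, which makes 5 of the 5 over the floor. Gbp6 passed the floor through its room air level alone. Gbp5, under the floor, stood at 13.4 and 4.502 CPM (-1.57).

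The 4 transcription factors differed less, and 0 of them passed the 2-fold limit (median log2 ratio -0.59). Irf9, the DNA-binding partner of the STATs at the ISRE, had 62.7 CPM in room air against 40.0 CPM in hyperoxia (log2 ratio -0.65, -0.81 to -0.49). Irf1, which is induced by interferon gamma and binds related elements, had 233 and 170 CPM (-0.45, -0.53 to -0.37). Stat2 stood at 38.01 and 26.3 CPM (-0.53), and Irf7, which amplifies type I interferon production, at 12.8 and 8.17 CPM (-0.65).

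The antiviral effectors ran from lower to equal. Of the 17, 11 were over the floor and 3 were lower, namely Isg15, Ifi27l2a and Ifi44. Isg15 had 43.5 CPM in room air and, in hyperoxia, 17.6 CPM (log2 ratio -1.31, -1.52 to -1.09). Ifi27l2a, a small mitochondrial protein, had 15.5 and 6.85 CPM (-1.18), and Ifi44 had 30.8 and 15.2 CPM (-1.02), the value closest to the 2-fold limit among those that reached it. Just outside it were Parp14, an ADP-ribosyltransferase (94.2 and 47.8 CPM), and Rtp4, a regulator of type I interferon responses (65.7 and 33.3 CPM), both at -0.98. Oasl2, Xaf1 and Ifit1 followed at -0.80, -0.73 and -0.75. Ifitm3, a membrane protein that blocks viral entry, stood at 1298 and 892 CPM (-0.54), and Trim30a, a ubiquitin ligase, at 67.2 and 50.7 CPM (-0.41). Bst2 alone of the 33 lay above 0, with 476 CPM in room air against 488 CPM in hyperoxia (0.04, -0.02 to 0.09). Its promoter held both motifs, as did those of the GTPase genes Tgtp2 and Igtp.

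Of the genes for antigen processing, Psmb9, an immunoproteasome subunit, was lower, with 148 CPM in room air and, in hyperoxia, 62.1 CPM (log2 ratio -1.25, -1.37 to -1.14). Psmb8, its partner subunit, stood at 205 and 124 CPM (-0.72), and Nlrc5, the class I transactivator, was under the floor at 9.72 and 3.13 CPM. Among the negative regulators, only Usp18, which removes the Isg15 protein from its targets and blocks a type I receptor chain, was over the floor, at 14.1 and 8.22 CPM (-0.78). Socs1, the JAK inhibitor, stood at 7.26 and 4.89 CPM, and Cd274, which encodes PD-L1, at 6.40 and 8.32 CPM (0.38, -0.08 to 0.86). The remaining members under the floor were Ifit2, Ifit3, Oas1a, Rsad2, Zbp1 and Mx1, all with hyperoxia values below those of room air, and Mx1 had only 3 and 1 UMIs.

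Of the interferon receptor genes, 0 of 4 passed the 2-fold limit. Ifngr1, the ligand-binding chain for interferon gamma, had 170 CPM in room air against 160 CPM in hyperoxia (log2 ratio -0.09, -0.18 to 0.00), and Ifngr2, its signalling partner, 92.4 and 83.6 CPM (-0.14). Of the type I receptor chains, Ifnar1 stood at 79.0 and 68.1 CPM (-0.21) and Ifnar2 at 101 and 70.5 CPM (-0.51). Ifng, the ligand, was nearly absent from ECs, with 2 UMIs in room air and 1 in hyperoxia.

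**Figure D2:**
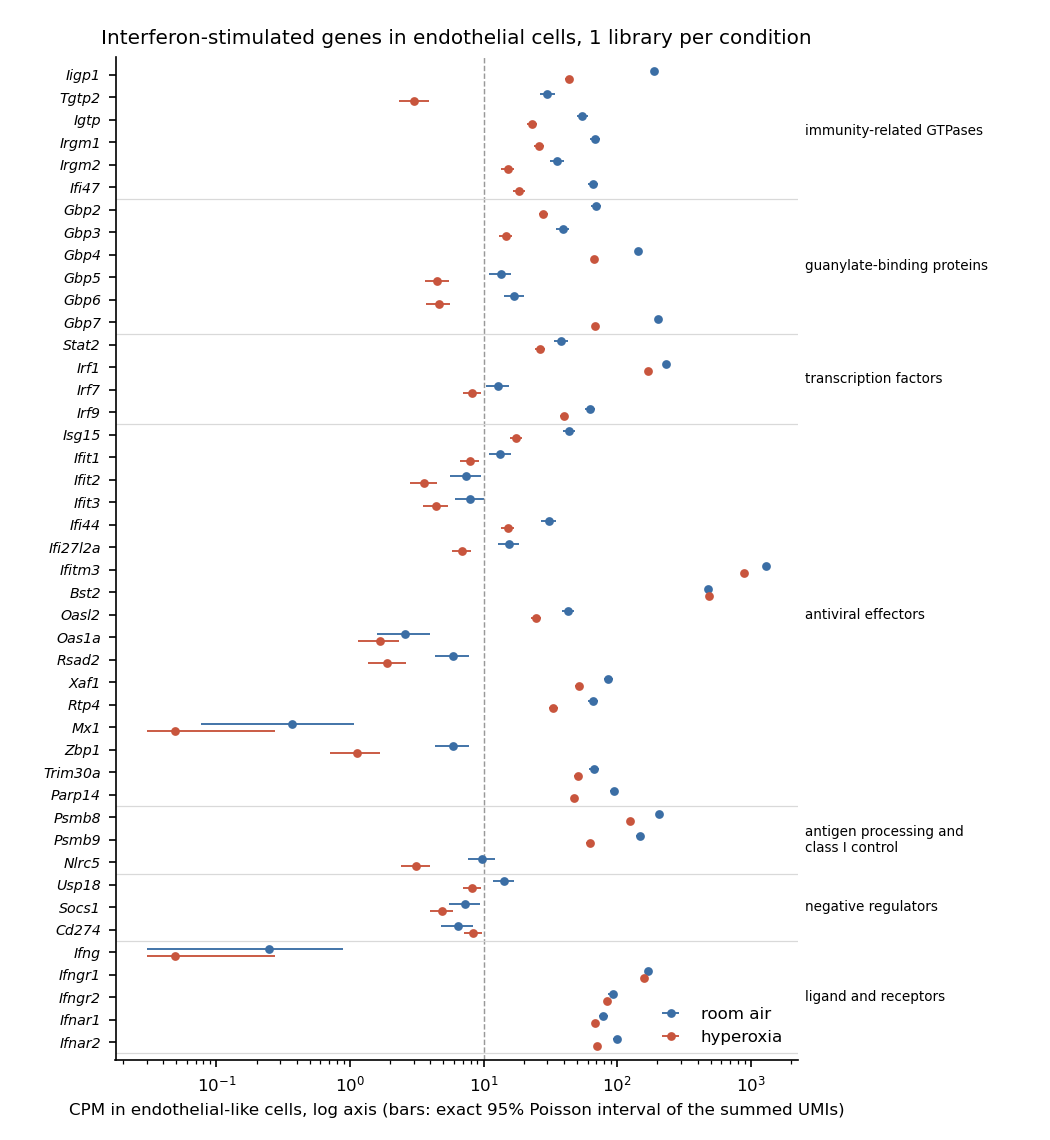
Level of each of the 44 members in ECs, by role; the horizontal log axis gives CPM over the summed UMIs of 1030 room air and 2554 hyperoxia ECs, points are the 2 libraries, and bars are exact 95% Poisson intervals, cut at the left edge where they reach towards 0. The dashed line is at 10 CPM. Among members with a mean over that line the widest gaps are those of Tgtp2 and Iigp1, and the points of Bst2 and Ifngr1 nearly coincide.

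Because hyperoxia ECs held more aCap cells, the EC subpopulations were examined apart. gCap cells of room air came mostly from 2 clusters (319 and 309 cells there, 21 and 16 in hyperoxia) and those of hyperoxia from 2 others (481 and 366 cells, 2 and 4 in room air). The libraries and the gCap clusters therefore nearly coincide. With the ECs of hyperoxia weighted to the subpopulation mix of room air, 12 members were lower instead of 15 and the median log2 ratio was -0.83, a computation added after seeing the data.

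In gCap cells, 13 of 32 members over the floor were lower, beside 2.62% of all genes, 0 were higher, beside 2.3%, and the median log2 ratio was -0.82 (all genes -0.01). Iigp1 stood at 229 CPM in room air and, in hyperoxia, 37.3 CPM (-2.62, -2.80 to -2.43), Tgtp2 at 34.9 and 2.86 CPM (-3.61), and Gbp6 at 19.6 and 3.98 CPM (-2.30). Gbp7 had 236 and 80.3 CPM (-1.55). Gbp4, with 172 and 98.9 CPM (-0.80), was the one GTPase member over the floor that did not reach the 2-fold limit in these cells. Usp18 and Parp14 were lower in gCap cells, at -1.005 and -1.01. Ifngr1 was above 0, with 191 and 225 CPM (0.24, 0.12 to 0.35), and so was Bst2, with 512 and 546 CPM (0.09).

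In aCap cells, 15 of 28 members over the floor were lower, beside 2.97% of all genes, 0 were higher, beside 1.92%, and the median log2 ratio was -1.09 (all genes 0.01). Iigp1 had 52.0 CPM in room air against 10.6 CPM in hyperoxia (-2.30), Tgtp2 23.6 and 2.55 CPM (-3.21), and Gbp4 76.3 and 21.8 CPM (-1.80). Iigp1 and Gbp4 thus stood lower in aCap than in gCap cells within each library, while the hyperoxia values of Tgtp2 were close. Irgm1, with 43.9 and 22.9 CPM (-0.94), was the only immunity-related GTPase that did not reach the limit. Isg15 (-1.84), Ifi44 (-1.58), Rtp4 (-1.34), Xaf1 (-1.16) and Irf9 (82.3 and 40.3 CPM, -1.03) were also lower, while Bst2 stood at 483 and 486 CPM and Cd274 at 11.47 and 15.5 CPM (0.44). The markers of leukocytes moved with this result in part, since 2 of 6 over the floor were lower in aCap cells, with a summed level of 263 CPM in room air and, in hyperoxia, 153 CPM. Haemoglobin genes summed to 6044 and 3270 CPM in the same cells. The part of either in the result was not tested.

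Arterial and venous ECs were few and differed less. In arterial ECs (55 and 143 cells) 3 of 30 members were lower, beside 4.72% of all genes, namely Isg15 (-1.01), Irf7 (-1.73, 13 and 11 UMIs) and Usp18 (-2.01, 10 and 7 UMIs), and 0 were higher, beside 5.89%. Iigp1 there stood at 153 CPM in room air against 83.5 CPM in hyperoxia (-0.88, -1.30 to -0.45). In venous ECs (37 and 144 cells) 8 of 33 were lower, beside 5.58% of all genes, and 1 was higher, beside 7.31%. The latter was Ifi27l2a, with 3 and 27 UMIs. Iigp1 had 238 and 172 CPM in venous ECs (-0.47), the highest level of any cell type in both libraries, though within the counting error of gCap cells in room air (229 CPM) and of alveolar fibroblasts in hyperoxia (169 CPM). Gbp7 had 223 and 99.3 CPM in venous ECs (-1.17). Cycling ECs, 29 and 25 cells, had 19 of 33 members lower, beside 9.65%, and 1 higher, beside 8.43%, again Ifi27l2a, with 1 and 9 UMIs.

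Summed over the 12 GTPase genes, the level in ECs was 928 CPM in room air and, in hyperoxia, 315 CPM (log2 ratio -1.56, -1.61 to -1.51). It was 1099 and 379 CPM in gCap cells (-1.54), 462 and 148 CPM in aCap cells (-1.65, -1.78 to -1.51) and 855 and 255 CPM in cycling ECs (-1.75, -2.12 to -1.40). Smaller ratios were seen in venous ECs, with 1075 and 699 CPM (-0.62, -0.78 to -0.46), and in arterial ECs, with 647 and 449 CPM (-0.53, -0.72 to -0.33). The counting intervals of both larger vessel types lay apart from those of gCap and aCap cells. Lymphatic ECs, 12 and 44 cells, had 548 and 378 CPM. Within the 2 gCap clusters that held most room air cells, the few hyperoxia cells had 622 and 897 CPM, against 1127 and 1091 CPM for the room air cells, and in the 2 that held most hyperoxia cells the level was 399 and 337 CPM.

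To compare cells at equal depth, each cell was thinned to 2000 UMIs, which left out 142 room air and 401 hyperoxia ECs. Of the ECs kept, 24.9% of room air cells (221 of 888, 22.1 to 27.9%) and 5.67% of hyperoxia cells (122 of 2153, 4.73 to 6.73%) held at least 3 UMIs of the 12 GTPase genes, a difference of -19.2 percentage points. Without thinning the difference was -33.9. The median EC held 1 GTPase UMI in room air and 0 in hyperoxia, and the 90th percentiles were 5 and 2. In alveolar macrophages, which served as the background for free RNA, 0 of 139 cells (median depth 13609.5 UMIs before thinning) and 0 of 303 cells (17661 UMIs) held as many, which allows up to 2.62 and 1.21% by the exact interval. These cells were deeper than ECs (medians 7209 and 8003 UMIs). Free RNA can therefore be a smaller part of each after thinning, and this background may be too low for ECs.

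Both capillary subpopulations were read in the same way. In gCap cells 29.7% and 7.45% held at least 3 GTPase UMIs, and 25.7% of room air cells held 0. For aCap cells the shares were 6.21 and 1.53%, for venous ECs 40.5 and 18.3%, and for arterial ECs 16.7 and 8.51%. T cells differed little, with 9.66 and 8.78%. At the same depth, 23.4% of room air and 5.81% of hyperoxia ECs held an Iigp1 UMI, and 6.19 and 0.604% a Tgtp2 UMI.

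**Figure D3:**
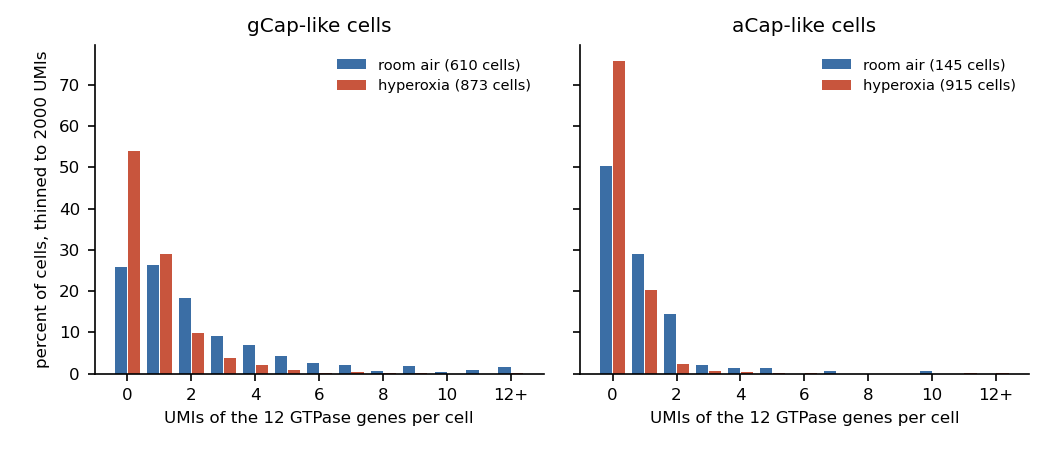
Number of UMIs of the 12 GTPase genes per cell after thinning to 2000 UMIs, in gCap cells (left) and aCap cells (right); bars give the percent of cells of each library, and the last class holds 12 or more. In gCap cells 25.7% of the 610 room air cells held 0, and the share with 0 was larger in hyperoxia, in both subpopulations.

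Cells rich in GTPase UMIs were a small part of each library. In all, 42 of 1030 room air ECs (4.08%) held at least 30 GTPase UMIs before thinning, with 1849 of the 7544 GTPase UMIs of that class, against 8 of 2554 hyperoxia ECs (0.313%). Without the 3 ECs richest in Iigp1 in each library the log2 ratio of Iigp1 was -2.18. Within each library the GTPase genes tended to be found in the same cells. Room air gCap cells with an Iigp1 UMI (164) held on average 2.65 UMIs of the other GTPases and those without (446) held 1.36. In hyperoxia the averages were 1.76 (50 cells) and 0.690 (823 cells). The tendency was not confined to the GTPases, since the same cells held on average 1.43 and 0.982 antiviral UMIs in room air. In hyperoxia they held 1.04 and 0.574.

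Outside the endothelium, the sum over the 12 GTPases differed less than in gCap, aCap and cycling ECs, in the types given with at least 20 cells. This did not hold for each family apart. The guanylate-binding proteins had a log2 ratio of -1.43 (-1.89 to -0.96) in smooth muscle cells and -1.24 in gCap cells. The immunity-related GTPases had -1.53 (-2.27 to -0.82) in dendritic cells and -1.54 in aCap cells. Summed over the 12 genes, T cells had 501 CPM in room air against 409 CPM in hyperoxia (log2 ratio -0.29), NK cells 492 and 392 CPM (-0.33), and B cells 238 and 184 CPM (-0.37). Alveolar fibroblasts had 311 and 262 CPM (-0.25), pericytes 356 and 241 CPM (-0.56), myofibroblasts 206 and 126 CPM (-0.71) and smooth muscle cells 201 and 97.9 CPM (-1.04). In myofibroblasts, 1 of 400 room air cells held 210 of the 1162 GTPase UMIs. Among myeloid cells, classical monocytes had 423 and 246 CPM (-0.78) and alveolar macrophages 82.7 and 62.5 CPM (-0.40). AT2 cells had 51.1 and 62.7 CPM (0.29), and without the 3 richest cells of each library their ratio was -0.84. The lymphoid class of ILC2 or gamma delta T cells, with 15 and 75 cells, had 448 and 169 CPM (-1.40, -1.87 to -0.93). That interval overlapped those of gCap (-1.60 to -1.47), aCap and cycling ECs. The counting intervals of these 3 EC types lay below those of every other type named in this paragraph, smooth muscle included (-1.31 to -0.76). They leave out the spread between mice and between cells. In ECs free of leukocyte-marker UMIs the aCap ratio, given below, lay within the smooth muscle interval.

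**Figure D4:**
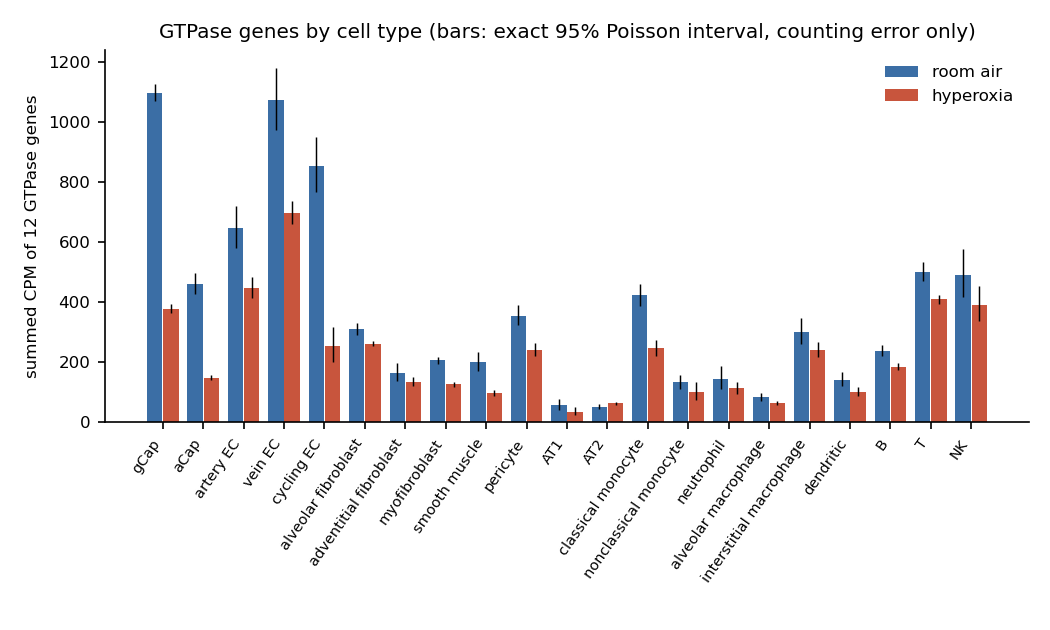
Summed CPM of the 12 GTPase genes in each cell type with at least 20 cells per library; bars are the 2 libraries and lines are exact 95% Poisson intervals of the summed UMIs. In room air gCap, venous and cycling ECs stand above the other types, and in hyperoxia venous ECs do, at 699 CPM.

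Iigp1 was a gene of vessel and stromal cells in both libraries. It stood at 207 CPM in room air and, in hyperoxia, 169 CPM in alveolar fibroblasts (log2 ratio -0.29), at 182 and 95.7 CPM in pericytes (-0.93), at 128 and 90.2 CPM in myofibroblasts (-0.51) and at 93.2 and 56.9 CPM in smooth muscle cells (-0.71). T cells had 16.2 and 8.97 CPM, and alveolar macrophages 3 and 2 UMIs. Of the 10 cell types with at least 100 Iigp1 UMIs, 8 had an interval wholly below 0. The exception upwards was AT2 cells, the surfactant-producing epithelial cells, with 3 UMIs in room air and 267 in hyperoxia (1.20 and 21.7 CPM, 4.18, 2.61 to 6.46). There, 3 of 878 hyperoxia cells held 96.6% of the UMIs (143, 59 and 56). These 3 cells held 4628, 3111 and 3898 UMIs of Sftpc, the surfactant gene, and at most 1 UMI of the EC marker Cdh5 or the stromal marker Col1a2. Their total depths were 23098, 18036 and 27775 UMIs, beside a median of 14275.5 in hyperoxia AT2 cells. Gbp7 lay below 0 in 13 of 13 cell types with at least 100 UMIs, and Isg15 in 5 of 5. Across the 21 types, the share of all genes below 0 ran from 38.4% in B cells to 71.1% in alveolar macrophages.

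Among stromal cells 1 of 17 members over the floor was lower, beside 1.35% of all genes, 0 were higher, beside 1.76%, and the median log2 ratio was -0.10. The lowest were Ifi27l2a, with 35.9 CPM in room air against 16.5 CPM in hyperoxia (-1.12), and Irgm1, under the floor, with 12.1 and 6.68 CPM (-0.85). The highest were Ifngr1, with 106 and 199 CPM (0.90), and Ifitm3, with 639 and 956 CPM (0.58). Alveolar fibroblasts, with 1 of 18 members lower (beside 2.01%) and 3 higher (beside 2.57%), showed the same 2 genes above 0. They had 123 and 329 CPM of Ifngr1 (1.42), 428 and 936 CPM of Ifitm3 (1.13) and 19.6 and 40.0 CPM of Irf1 (1.03), but 40.3 and 12.1 CPM of Ifi27l2a (-1.73). Alveolar fibroblasts of room air came mostly from 1 cluster (176 cells, 15 in hyperoxia) and those of hyperoxia from 2 others (594 and 434 cells, 4 and 4 in room air). Genes of the response to tissue dissociation, which can rise during enzymatic digestion, summed to 7476 CPM in room air and to 11017 CPM in hyperoxia in stromal cells, with 0 genes past the 2-fold limit. Haemoglobin genes summed to 37.8 and 139 CPM, with 3 of 3 over the floor higher, and epithelial markers to 586 and 943 CPM, with 2 of 4 higher (Sftpc 1.16, Sftpa1 1.15). The part of these lists in the stromal values was not tested.

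Epithelial cells had 7 of 20 members lower, beside 5.49% of all genes, and 1 higher, beside 1.11%. Ifi27l2a stood at 91.7 CPM in room air against 2.23 CPM in hyperoxia (log2 ratio -5.36), and Ifitm3 at 267 and 44.9 CPM (-2.57). The highest were Iigp1, with 6.62 and 19.9 CPM (1.59), which came from the 3 AT2 cells above, and Ifnar1, with 16.9 and 21.9 CPM (0.37). In AT2 cells, with 5 of 18 lower (beside 2.06%) and 1 higher (beside 1.17%), Ifi27l2a had 109 and 1.87 CPM (-5.86). Club cells, 30 in room air and 5 in hyperoxia, held 1040 of the 1370 epithelial Ifitm3 UMIs of room air and 22 of the 604 of hyperoxia. Within club cells Ifitm3 stood at 569.7 and 401 CPM (-0.51, -1.19 to 0.10), and in AT2 cells its ratio was -1.08, both nearer to 0 than the epithelial ratio. Of 6 leukocyte markers over the floor in epithelial cells 4 were lower, and 9 of 12 dissociation response genes were, from a sum of 3819 to 1789 CPM, and the part of these in the epithelial values was not tested. AT1 cells, the flat cells of gas exchange, had 5 of 24 members lower, beside 5.56%, and 0 higher, beside 3.78%. They held the highest levels of any type of Ifit1, which encodes a protein that binds viral RNA (61.9 and 45.5 CPM), and of Ifit3 (77.3 and 76.9 CPM).

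Among myeloid cells 10 of 28 members were lower, beside 2.34% of all genes, and 0 higher, beside 1.3%, with a median log2 ratio of -0.72 against -0.08 for all genes. Ifi27l2a had 654 CPM in room air and, in hyperoxia, 179.9 CPM (-1.86) and Irf7 75.999 and 22.1 CPM (-1.78), while Cd274 stood at 65.1 and 68.1 CPM (0.06) and Ifnar1 at 39.9 and 38.9 CPM (-0.04). Nonclassical monocytes made up 6.41% of room air cells and 1.19% of hyperoxia cells, and they held 3275 and 2350 CPM of Ifitm3. The part of the cell mix in the myeloid sums was not tested. Within classical monocytes, 10 of 34 members were lower, beside 1.77%, and 0 higher, beside 3.16%, with Isg15 at 127 and 43.7 CPM (-1.54) and Ifi27l2a at 2023 and 966 CPM (-1.07), the highest level of Ifi27l2a in any type. The leukocyte, dissociation and free RNA marker lists had 0 genes lower in myeloid cells. Neutrophils had 10 of 27 members lower (beside 7.33%) and 1 higher (beside 6.69%), with Isg15 at 214 and 56.2 CPM (-1.93) and Ifi27l2a at 657 and 193 CPM (-1.77).

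Lymphocytes had 1 of 29 members lower, beside 0.3% of all genes, and 0 higher, beside 0.6%, with a median log2 ratio of -0.13 (all genes 0.05). The lowest were Ifi27l2a, with 432 CPM in room air against 199.9 CPM in hyperoxia (-1.11), and Isg15, with 22.2 and 12.4 CPM (-0.84). The highest were Gbp5, under the floor, with 5.25 and 8.23 CPM (0.65), and Socs1, with 15.2 and 22.0 CPM (0.54). Ifng was found in NK and T cells, at 274 and 226 CPM in NK cells (-0.27, -0.70 to 0.16) and at 86.1 and 74.3 CPM in T cells (-0.21, -0.46 to 0.04). Both intervals held 0. Ifngr1 was highest in NK cells (676 and 699 CPM). T cells had 2 of 33 members lower, beside 0.547%, and 0 higher, beside 0.629%. B cells had 2 of 24 lower, beside 0.488%, and 0 higher, beside 1.61%. Haemoglobin genes summed to 47.1 CPM in room air lymphocytes and to 538 CPM in those of hyperoxia, while the share of lymphocytes with an Hba-a1 UMI was 5.95% in room air (62 UMIs) and 2.51% in hyperoxia (1641 UMIs). Their part in the lymphocyte values was not tested.

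Ifi27l2a, like Gbp7, lay below 0 in 13 of 13 cell types with at least 100 UMIs. In 11 of them the log2 ratio of Ifi27l2a was -1 or below, including myofibroblasts (-3.54) and alveolar macrophages (-2.20). Across all 21 types, 38.4 to 71.1% of all genes lay below 0. Venous and cycling ECs, with fewer UMIs of Ifi27l2a, had it above 0. Among the other types, NK cells had 6 of 31 members lower (beside 6.97%) and 0 higher (beside 9.94%), and dendritic cells 5 of 26 (beside 3.19%) and 0 (beside 2.72%). Interstitial macrophages had 6 of 27 lower (beside 6.06%) and 1 higher, Cd274 (beside 3.64%), and pericytes 4 of 23 lower (beside 3.27%) and 1 higher, Gbp2 (beside 3.43%). Smooth muscle cells had 5 of 15 lower (beside 3.93%) and 0 higher (beside 3.57%), and nonclassical monocytes 3 of 28 (beside 4.29%) and 0 (beside 6.25%). Alveolar macrophages had 1 of 16 lower (beside 7.04%), adventitial fibroblasts 1 of 22 (beside 2.54%) and myofibroblasts 1 of 16 (beside 1.59%), and these 3 types had 0 higher, beside 1.36, 3.26 and 1.58% of all genes. Over all cells of a library together, 6 of 32 members were lower (beside 1.21%) and 0 higher (beside 0.908%). Some of these values rest on few cells. In myofibroblasts Gbp2 had a log2 ratio of -2.69, but 64 of 91 room air UMIs came from 1 cell and without the 3 richest cells per library it was -1.12.

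**Figure D5:**
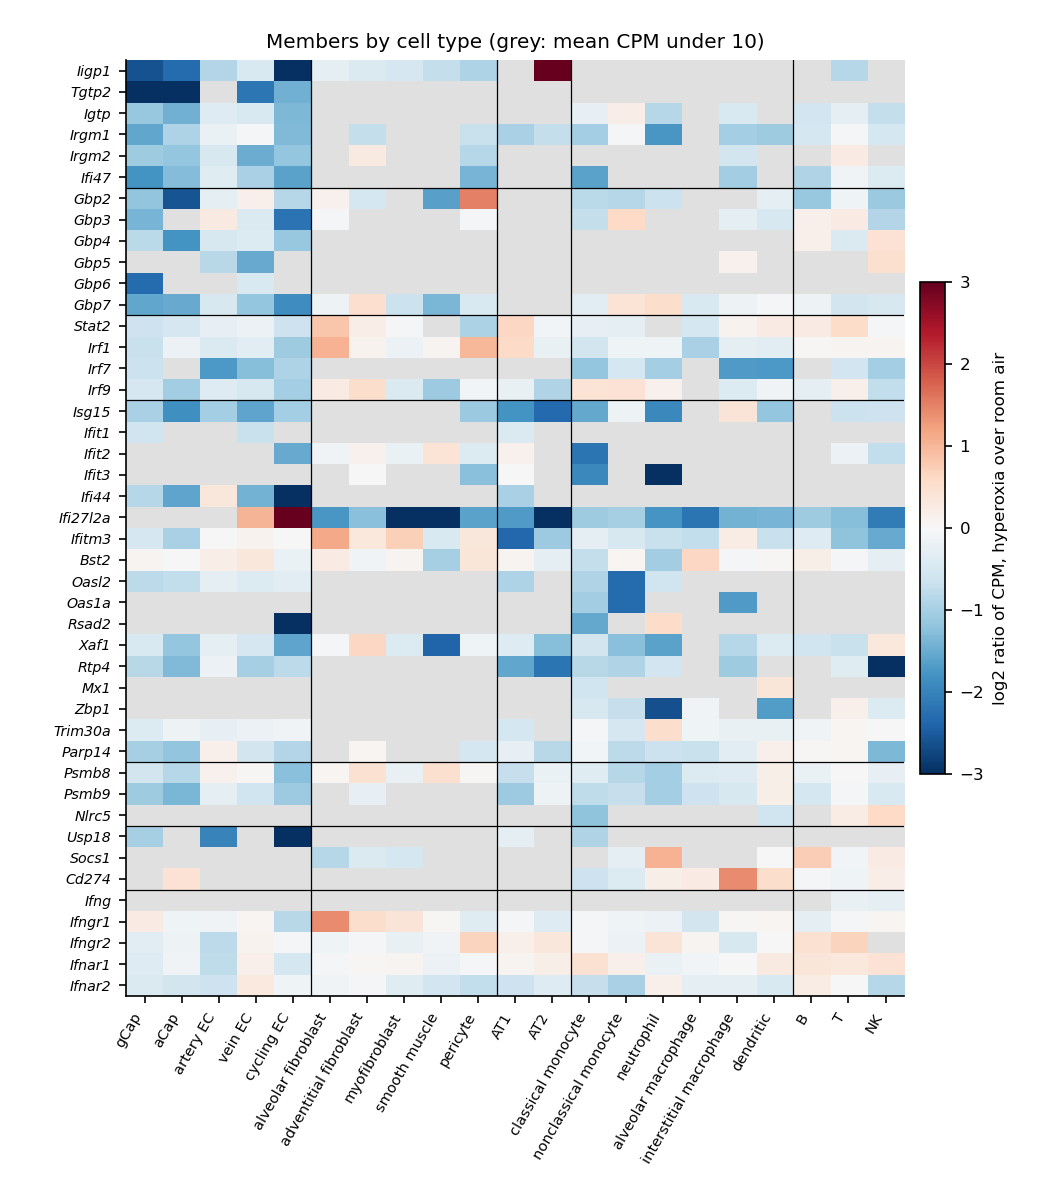
Log2 ratio of CPM, hyperoxia over room air, of each member (rows, by role) in each cell type with at least 20 cells per library (columns, by lineage); blue is lower and red is higher in hyperoxia, colours end at 3 in either direction, and grey marks a mean CPM under 10. The GTPase rows are blue in gCap and aCap cells and pale in T cells, the Ifi27l2a row is blue in most types, and the red squares of Iigp1 in AT2 cells and of Ifi27l2a in cycling ECs rest on 3 cells and on 10 UMIs.

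Other genes of the pathway, 91 in the files and none of them members, were read in ECs beside the members. The 11 kinases and STAT or IRF factors, 7 of them over the floor, summed to 797 CPM in room air against 620 CPM in hyperoxia, and the kinase gene Jak1 stood at 229 and 212 CPM (log2 ratio -0.11). Of 34 further interferon-stimulated genes over the floor 4 were lower, beside 2.36% of all genes, the lowest being Sp100 (81.1 and 30.7 CPM, -1.40), Tor3a (-1.21) and Tap1, the peptide transporter (-1.17). The 5 sensors and adaptors and the 1 other receptor chain over the floor were neither lower nor higher. The highest of all these were Slfn9 (12.3 and 14.1 CPM, 0.20), Psme2 (165 and 180 CPM, 0.12) and Mavs (12.9 and 13.5 CPM, 0.06). In gCap cells 5 of 34 further interferon-stimulated genes were lower (beside 2.62%) and 1 higher (beside 2.3%), and in aCap cells 4 of 32 were lower (beside 2.97%) and 0 higher (beside 1.92%).

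Markers of other cells and of sample handling were read in ECs as well. All 12 dissociation response genes lay above 0 and 0 passed the 2-fold limit, with sums of 5649 CPM in room air and, in hyperoxia, 6785 CPM and the largest ratios for Fosb (0.86) and Zfp36 (0.73). The 8 leukocyte markers over the floor all lay below 0 and 0 passed the limit, with sums of 193 and 143 CPM and the lowest ratios for Coro1a (-0.91) and Fcer1g (-0.76). The defining leukocyte gene Ptprc stood at 12.8 and 8.76 CPM, and Cd3e was near 0. Epithelial markers summed to 855 and 957 CPM, stromal markers to 149.8 and 166 CPM and haemoglobin genes to 1730 and 1371 CPM. ECs that held no UMI of a leukocyte marker numbered 339 in room air and 961 in hyperoxia, 32.9% and 37.6% of all ECs. With only these, the median log2 ratio of the members was -1.15. The filter cannot tell free leukocyte RNA from a leukocyte, and it can change which members pass the floor. The summed GTPase ratio of aCap cells was smaller in size with this filter, as given below. The part of these lists in the EC values, leukocyte markers included, was not tested.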

How the data were processed

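The data are 2 scRNA-seq libraries of whole lung at postnatal day 14, room air and hyperoxia, each pooled from 8 mice. The authors aligned the reads to mm10 and used Cell Ranger to count the UMIs of each gene in each barcode (version 2.1.1 per the submitters' processing notes, while the labels and methods name others), and deposited raw counts with no normalization for the barcodes called as cells. Groups were taken from the labels.

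Barcodes under 500 genes or over 20% mitochondrial UMIs were dropped (345 and 1026 barcodes had fewer genes, 80 and 486 too many mitochondrial UMIs). Doublets, ranked by neighbouring artificial doublets as in Scrublet, were removed at 0.8% per 1000 barcodes (129 in room air, 1239 in hyperoxia). After scaling to 10000 per cell and a log transform, 2000 variable genes without the members, pathway, mitochondrial and sex-linked genes gave 30 principal components, a graph of 20 shared neighbours and Leiden clusters at resolution 1 (seed 1), 31 over all cells and 16 over ECs. A cluster took the name of the class whose markers scored highest (at least 5% of cells, log2 CPM at least 0.5 above other clusters). This naming rule was chosen after clusters had been seen, and 96 room air and 347 hyperoxia cells stayed unnamed. CD4 and CD8 T cells were merged.

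UMIs were summed per class and library as CPM over 1000000 UMIs. Levels have exact Poisson, ratios exact conditional and shares exact Clopper-Pearson 95% intervals. They cover counting error only, and 1 library per group allows no test. The 1030 room air ECs set the precision. A call needed a 2-fold ratio and a mean of 10 CPM, the floor, in classes of at least 20 cells per library (21 types). Interval code was tested on simulated data. Software was Python 3.11.15, numpy 2.4.6, scipy 1.17.1, pandas 2.3.3, scikit-learn 1.9.0, igraph 0.11.9, leidenalg 0.10.2, R 4.3.3 and edgeR 4.0.16 (TMM factors only).

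The members, the 4 pathway lists (other ligands and receptor chains, kinases and STAT or IRF factors, sensors and adaptors, other interferon-stimulated genes; 91 of 95 genes in the files) and the 5 control lists (dissociation response, leukocyte, epithelial and stromal markers, haemoglobin) were chosen with earlier results of these data known. Named with values were Iigp1 and Tgtp2, the extreme members of each role group in ECs, the ligand and receptors, the 2 lowest and highest members with at least 100 UMIs in each other lineage, and members highest in 1 cell type. Further members were named after their values were seen. In all, 19 alternatives were computed, 17 planned and 2 added after seeing the data. The promoter of Iigp1 is not shown, and 1 gene of the pathway lists is not reported here.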

Additional observations from a re-analysis of the deposited data

Results flagged for a closer look

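In all, 3 members had a log2 ratio of 1 or above in one cell type or lineage and of -1 or below in another. Only types and lineages with at least 100 UMIs of the gene were read, and a lineage includes the UMIs of its types. The share of all genes that do so is not given, so the 3 are not read as many or few. With 1 library per group the differences were not tested. The log2 ratio of Iigp1 (hyperoxia over room air) was 4.18 in AT2 cells and 1.59 in epithelial cells as a lineage, against -2.12 in ECs, -2.30 in aCap cells and -2.62 in gCap cells. Without the 3 richest cells per library it was -1.33 in epithelial cells, -2.18 in ECs, -2.28 in aCap cells and -2.75 in gCap cells, since 3 hyperoxia AT2 cells held 96.6% of the AT2 UMIs.

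For Irf1, the log2 ratio was 1.03 in alveolar fibroblasts and -1.07 in cycling ECs. Without the 3 richest cells per library the values were 1.22 and -1.07, and cycling ECs numbered 29 and 25.

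For Ifitm3, the log2 ratio was 1.13 in alveolar fibroblasts, against -2.57 in epithelial cells, -1.28 in myeloid cells, -1.08 in AT2 cells and -1.22 in T cells. Without the 3 richest cells per library the values were 1.23, -2.46, -1.27, -1.05 and -0.25, so that of T cells rested on few cells. In the epithelial lineage, 30 room air club cells (5 in hyperoxia) held 1040 of the 1370 room air Ifitm3 UMIs, and the ratio within club cells was -0.51.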

How the results depend on the processing

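With 1 library per group no library could be left out, and the depth of single cells limits the members under the floor. No paired analysis was possible because each group held 1 library and no test was made. Of the 15 members lower in ECs, 12 stayed lower in all 14 settings that gave member values, and all 15 lay below 0 in each. The exceptions were Gbp4, Ifi44 and Ifi27l2a. With a floor of 50 mean CPM the count was 4 and the median log2 ratio -0.59, since fewer members passed the floor, and with only ECs free of leukocyte-marker UMIs the median was -1.15. The summed GTPase log2 ratio in aCap cells was -1.33 with no doublets removed, -1.46 with double the number removed and -1.19 in ECs free of leukocyte-marker UMIs. In gCap cells it was -1.63 with each cell named by its own score, -1.46 with TMM factors, -1.41 as a mean of per-cell CPM and -1.67 in ECs free of leukocyte-marker UMIs. The difference in the share of ECs with GTPase UMIs was -22.6 points in ECs free of leukocyte-marker UMIs, -8.07 after thinning to 1000 UMIs, -33.9 without thinning and -31.2 for at least 1 UMI. It had no value under other CPM scalings. The ratio of Ifng, from 3 UMIs in all, became 1.84 with no doublets removed. Apart from the thinning and the floor, which change the quantity itself, the cause of these shifts was not tested.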

Other observations

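A few members stood highest in a single cell type outside the endothelium in both libraries. Cd274, which encodes PD-L1, was highest in nonclassical monocytes (room air 158 CPM, hyperoxia 119 CPM) and Zbp1, a sensor of nucleic acids, in classical monocytes (149 and 107 CPM). Mx1 was highest in classical monocytes (36.1 and 23.9 CPM) and Rsad2, which encodes viperin, in neutrophils (40.5 and 58.9 CPM). Psmb8 and Psmb9 were highest in dendritic cells, with 615 and 691 CPM and with 332 and 372 CPM. Nlrc5 was highest in T cells (29.9 and 34.8 CPM). Trim30a was highest in neutrophils, with 162 and 232 CPM.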
